A study of Caenorhabditis elegans with 12 samples.

Results

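MicroRNA hairpins were compared between day 15 and day 5 in whole Caenorhabditis elegans kept with the solvent alone, 6 of the 12 small RNA libraries of the series. The libraries were chosen by their labels: 3 of N2 hermaphrodites aged 5 days and 3 of N2 hermaphrodites aged 15 days, all given 0.1% DMSO (dimethyl sulfoxide, the solvent of the drug). N2 is the laboratory wild-type strain and carries no mutation or transgene. The other 6 libraries are of N2 worms of the same ages that received 100 nM rotenone, a blocker of mitochondrial complex I, for 24 hours from the L4 stage, the last larval stage. The question was which microRNAs differ between younger and older worms in the control arm. The sources used here do not give the starting point of the day count, how offspring were kept apart from the ageing adults, or whether replicates were separate cultures, so p-values measure only how these samples vary, and that variation may be technical.

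A microRNA gene is transcribed as a precursor that folds into a hairpin. The hairpin is cut to a short mature strand, which guides an Argonaute protein to messenger RNAs and lowers their translation and stability. Short pairing at the 5′ end of the mature strand, the seed, decides much of target choice, so hairpins with a common seed are grouped as families. The families here are taken from general knowledge of worm microRNAs and were not checked against sequence. In worms, microRNAs are known for timing larval stages, for roles in the embryo and for effects on lifespan, where some lengthen and others shorten life. Each value here is for a hairpin, so its arms are counted together.

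The 3 libraries of day 5 held 10481528, 9681173 and 8845726 hairpin reads and the 3 of day 15 held 5989717, 5729530 and 4727531. A count of 3 corresponded to 0.286 to 0.635 CPM (counts per 1000000 hairpin reads). Ages were set apart along the first principal component (92.6% of variance), and the second held 2.74%. At day 5, replicates 1 and 2 (sequencing lane tag L006) gave a chi-square of 90.2 per degree of freedom, where pure sampling gives 1. Their values against replicate 3 (L007) were 316 and 419. At day 15, replicates 2 and 3 (both L007) gave 45.6, and their values against replicate 1 (L006) were 95.2 and 104. Lane was thus spread unevenly over age, with 2 day 5 libraries and 1 day 15 library in L006 and the reverse in L007. At each age 1 library was alone in its lane, so lane and that library cannot be told apart.

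Most hairpins differed with age. Of 250 hairpins in the table, 174 had enough reads to test, and 142 of them (81.6%) were called at an adjusted p under 0.05 (edgeR quasi-likelihood test, Benjamini-Hochberg over the 174). Higher calls at day 15 numbered 66 (37.9%) and lower calls 76 (43.7%). The number with an unadjusted p under 0.05 was also 142. A change of more than 1 on the log2 scale was reached by 64 of the called hairpins (36.8%), 28 upward (16.1%) and 36 downward (20.7%). The median change over all 174 was -0.03 with quartiles of -0.82 and 0.68, and the median absolute change was 0.78. The libraries of the ages did not overlap for 143 hairpins (82.2%), of which 138 were called. With 81.6% called, a call by itself sets no hairpin or family apart, so sizes and directions are given for the hairpins named. Below, ± after a CPM or a share is the SD of 3 libraries, and ± after a log2 change is its SE.

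Lane L006 alone has 1 day 15 library and lane L007 alone has 1 day 5 library, so only the direction of change is compared here. In each lane 141 of the 142 calls were tested and all 141 had the sign seen over both lanes. With lane as a term in the fit, 138 of the 142 calls kept their direction and their call. The lanes contribute to the same 6 libraries that made the calls, so these counts are no independent support. All values are relative. Shares are relative to the sum of hairpin reads, and CPM of libraries and groups and log2 changes to that sum after TMM scaling. In whole worms fewer cells of a type and less RNA per cell cannot be told apart.

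**Figure D1:**
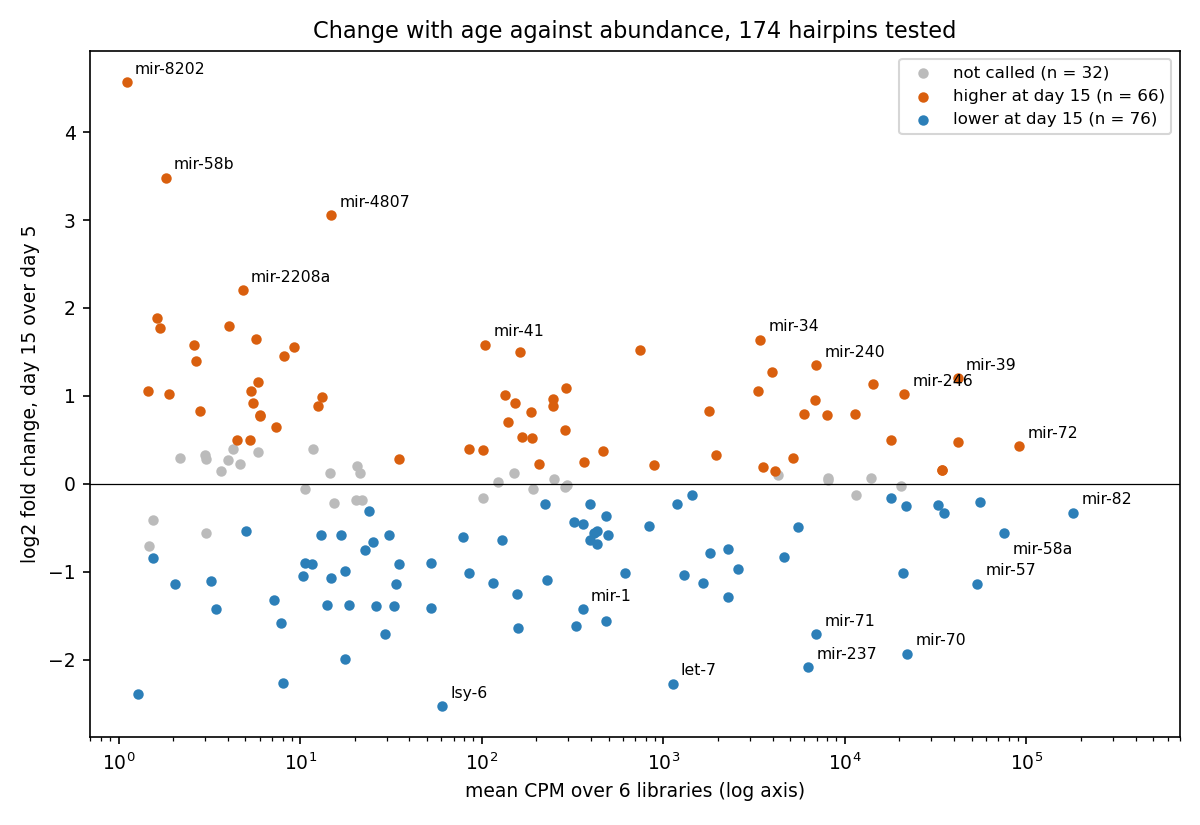
Log2 fold change from day 5 to day 15 in DMSO (y axis) against mean CPM over the 6 libraries (x axis, log scale) for the 174 tested hairpins, coloured by call. Changes of more than 1 are found at every abundance, from mir-4807 at 3.06 and mir-34 at 1.64 to let-7 at -2.27 and mir-57 at -1.14.

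Where the mean reached 10 CPM, the leading rises were those of mir-4807, mir-34 and mir-41. For mir-34, a conserved hairpin known for its part in stress responses, the day 5 libraries held 1636, 1610 and 1661 CPM and the day 15 libraries 5051, 5249 and 4979 CPM. The lowest old library was far above the highest young one, and the mean rose from 1635 ± 25.4 to 5093 ± 139 CPM (SD, n = 3), a factor of 3.11. The log2 change was 1.64 with an SE of 0.05 (edgeR quasi-likelihood test, adjusted p = 2.82e-11). Of the scarce mir-4807, libraries of day 5 held 3.77, 2.90 and 2.45 CPM and those of day 15 held 26.2, 22.6 and 28.6 CPM. This 8.32-fold rise was the largest among hairpins whose mean reached 10 CPM and rests on 20 to 39 reads in each young library. It reached that mean through day 15 alone, so its place in the ranking depends on the age at which it is high.

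A pair of hairpins that lie side by side on the X chromosome, mir-240 and mir-786, rose together. The first had 3945, 3718 and 3896 CPM at day 5 and 9655, 9641 and 10157 CPM at day 15 (2.55-fold). The second, which is known to act in the intestine on the defecation rhythm, had 84.6, 95.4 and 69.3 CPM and then 247, 239 and 222 CPM (2.83-fold). Neither showed any overlap between ages. Also in the group of the 15 largest rises were mir-250 (from 379 ± 12.7 to 1084 ± 44.7 CPM), mir-84, mir-39, mir-40, mir-42, mir-239a, mir-246, mir-795, mir-8201 and mir-2209a, with log2 changes of 0.97 to 1.52. Of these mir-8201, with means of 8.75 CPM at day 5 and 17.4 CPM at day 15, also reached 10 CPM through day 15 alone. All 15 held their call and direction under every one of the 18 alternatives. They were picked as the largest rises in libraries that the alternatives reuse, so this is no independent support.

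**Figure D2:**
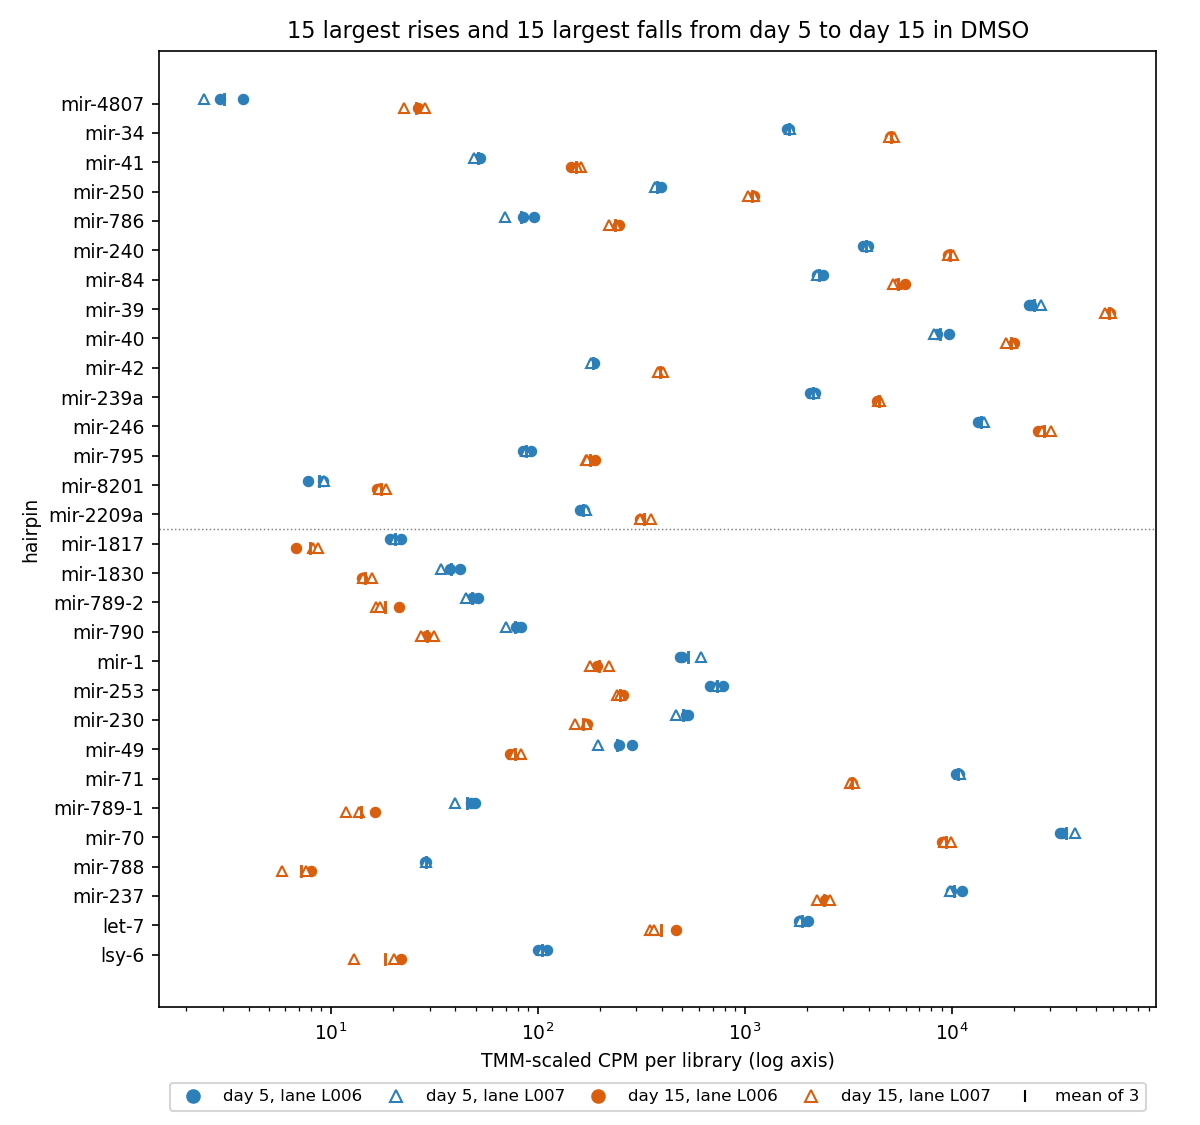
TMM-scaled CPM in each of the 6 libraries (x axis, log scale) for the 15 largest rises (above the dotted line) and the 15 largest falls (below) of called hairpins whose mean reached 10 CPM; filled circles are lane L006, open triangles lane L007 and vertical bars the mean of 3 libraries. The libraries of day 5 and of day 15 do not overlap for any of the 30 hairpins shown. These were picked by size of change in the same libraries, and 143 of all 174 tested hairpins (82.2%) did not overlap.

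The deepest fall was that of lsy-6, which is known for setting the left-right difference of a pair of taste neurons. It stood at 111, 100 and 105 CPM at day 5 and at 21.8, 12.9 and 20.1 CPM at day 15, a 5.77-fold fall (edgeR quasi-likelihood test: log2 -2.53 ± 0.14, adjusted p = 2.89e-09). The falls of let-7, mir-237, mir-70 and mir-71 were also among the 15 largest. In the day 5 libraries mir-70 held 34159, 33467 and 39522 CPM and in the day 15 libraries 8988, 9175 and 9916 CPM, 3.82-fold less. It lies in an intron of pmp-5 in the WBcel235 annotation. The other falls among the 15 largest were of mir-788 (-1.99 ± 0.14), mir-789-1, mir-49, mir-230, mir-253, mir-1, mir-790, mir-789-2, mir-1830 and mir-1817, with changes of -1.71 to -1.38. Counts of mir-789-1 and mir-789-2, which carry the name of the same mature product and fell by 1.71 and 1.39 on the log2 scale, may share reads and are uncertain as separate values. The day 15 means of mir-788 and mir-1817 lay under 10 CPM, so they reached that level through day 5 alone. All 15 falls kept their call and direction under the 18 alternatives, which reuse the libraries that ranked them and so are no independent support.

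A fall from the very top of the list was that of mir-57, a hairpin known for a role in posterior body patterning. It made up 7.44%, 6.98% and 7.33% of hairpin reads at day 5 and 3.48%, 3.46% and 3.60% at day 15 (log2 -1.14 ± 0.06). It thereby left the 5 most abundant hairpins, which at day 5 were mir-82, mir-58a, mir-72, mir-57 and mir-80 and at day 15 were mir-82, mir-72, mir-58a, mir-39 and mir-80. The 10 most abundant hairpins of a library held 65.4%, 65.3% and 67.8% of its reads at day 5 and 63.3%, 65.0% and 64.3% at day 15. The effective number of hairpins (the exponential of the Shannon entropy of the read shares) was 25.5, 25.9 and 23.6 at day 5 and 27.3, 26.3 and 26.2 at day 15, without overlap (exact permutation test, two-sided, p = 0.1). That p is the smallest that 3 libraries against 3 can give.

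Every hairpin of the miR-35 family rose. Its 8 hairpins are known from oocytes and embryos, where they are needed for embryonic survival. Its share of hairpin reads was 8.59%, 9.35% and 8.16% in the day 5 libraries and 16.9%, 16.4% and 15.6% in the day 15 libraries. The groups lay well apart (exact permutation test, two-sided, p = 0.1, the smallest possible). All 8 members were called higher, beside 37.9% of all 174 tested. Their median log2 change was 1.02 against -0.03 over all hairpins tested. The sizes were uneven. The largest rise was that of mir-41, from 52.3, 52.5 and 48.9 CPM to 145, 161 and 155 CPM (3.00-fold), while mir-35, the most abundant member at day 5, rose from 33974, 38075 and 32611 to 49268, 49214 and 46676 CPM (1.39-fold). At day 15 mir-39 had overtaken it, with 58142, 59103 and 55496 CPM after 24331, 23671 and 27011 CPM at day 5 (2.30-fold). The other members rose 2.20-fold (mir-40), 2.12-fold (mir-42), 1.93-fold (mir-36), 1.78-fold (mir-38) and 1.42-fold (mir-37). Their sequences are closely related, so reads may have been shared among members by the counting, whose rule is not given. The 7 hairpins mir-35 to mir-41 lie in 1 cluster on the plus strand of chromosome II (11537608 to 11538404), and the 3 at its downstream end (mir-39, mir-40 and mir-41) had larger changes than any of the first 4.

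Of 6 hairpins that time larval development, called heterochronic, 4 were called lower, beside 43.7% of all 174 tested. The 6 all belong to the let-7 and lin-4 families. Those that fell were let-7, lin-4, mir-237 and mir-241, mir-84 rose and mir-48 was not called. The median was -0.86 against -0.03 over all hairpins tested. The libraries held 2016, 1835 and 1854 CPM of let-7, the hairpin of the larval-to-adult switch, at day 5 and 466, 350 and 364 CPM at day 15. This fall of 4.83-fold left no overlap (log2 -2.27 ± 0.10). The lin-4 family moved together but unequally. Its founder lin-4, known for the first larval transitions and for lengthening adult life, went from 446, 464 and 355 CPM to 325, 295 and 300 CPM (1.38-fold lower). The far more abundant mir-237 went from 9937, 11203 and 9815 CPM to 2456, 2233 and 2590 CPM (4.25-fold lower), and the family's share of reads fell from 1.04 ± 0.113% to 0.282 ± 0.0215% (SD, n = 3).

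The let-7 family did not act as a block. Besides let-7, mir-241 fell from 222 ± 16.8 to 92.8 ± 5.66 CPM and mir-793 from 537 ± 27.9 to 333 ± 23.5 CPM. In contrast mir-84, a let-7 relative that acts in the same timing pathway, rose from 2384, 2231 and 2249 CPM to 5982, 5382 and 5197 CPM (2.41-fold, log2 1.27 ± 0.06). Also higher were mir-795 (2.02-fold) and mir-794 (1.45-fold), which lie 1032 bases apart on chromosome I. The most abundant member, mir-48, had 14195, 13363 and 13158 CPM at day 5 and 14862, 13503 and 14366 CPM at day 15, groups that overlap (log2 0.07, 95% interval -0.06 to 0.20), and 5 of the 18 alternatives called it higher. It lies on the same strand of chromosome V as mir-241, 1678 bases away. The family's share of reads rose from 1.82 ± 0.129% to 2.16 ± 0.160%, with no overlap of the libraries and the smallest possible p of 0.1 (exact permutation test, two-sided).

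Among 11 hairpins tied to lifespan and stress, 5 rose and 5 fell, beside 37.9% and 43.7% of all 174 tested. The median was -0.13 against -0.03 over all tested. The rises were those of mir-34, mir-239a, mir-246, mir-239b and mir-83. For mir-246, known to favour long life and to be made in the gonadal sheath, libraries held 13725, 13392 and 14330 CPM and then 26293, 27451 and 30380 CPM (2.03-fold). The pair mir-239a and mir-239b, whose loss is known to lengthen life, rose 2.07-fold and 1.72-fold, while their relative mir-238 stood at 12048 ± 1097 and 10995 ± 806 CPM and was not called (log2 -0.13, 95% interval -0.29 to 0.03) except lower without day 5 replicate 3. In the other direction mir-71, which is known to lengthen life and to act from neurons, went from 10546, 10808 and 11007 CPM to 3291, 3240 and 3374 CPM (3.27-fold lower, log2 -1.71 ± 0.05). The other 4 that fell were lin-4, mir-124, mir-80 and mir-228. Those of mir-80 (-0.20 ± 0.07) and mir-228 (-0.24 ± 0.08) were no longer called under DESeq2, under RLE size factors or under library size alone. Without day 15 replicate 2 the rise of mir-83 and the fall of mir-228 were no longer called. The same held for mir-83 without day 5 replicate 1, for mir-228 without day 5 replicate 2 and for mir-80 without day 15 replicate 1 or 3.

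Of 7 hairpins used as tissue markers, 6 were called lower at day 15, beside 43.7% of all 174 tested. All 7 were detected at both ages. The muscle hairpin mir-1 stood at 488, 497 and 613 CPM and then at 194, 220 and 178 CPM (2.69-fold lower). The intestinal hairpin mir-60 stood at 2159, 2209 and 2484 CPM and then at 1054, 1064 and 1027 CPM (2.18-fold lower). Among the neuronal hairpins lsy-6 fell furthest, mir-791, known from carbon dioxide sensing neurons, fell from 27.3 ± 2.54 to 10.4 ± 1.15 CPM and mir-124, of sensory neurons, fell from 31.2 ± 2.69 to 19.7 ± 1.24 CPM. The glial hairpin mir-228 had a small fall (1.18-fold) with overlapping libraries, and mir-246 of the gonadal sheath was the 1 that rose. The summed level of all 7 was higher at day 15, with 48617 to 55327 CPM at day 5 and 56239 to 63730 CPM at day 15. Without mir-246 and mir-228, the 5 muscle, intestine and neuron hairpins summed to 2818 to 3255 CPM at day 5 and 1254 to 1327 CPM at day 15. Most of that sum is mir-60. The summed level of the oocyte and embryo family miR-35 was 86950 to 93720 CPM at day 5 and 152521 to 161519 CPM at day 15. A larger share of reads for some hairpins lowers the share of all others, and the part of the mix of tissues in these changes was not tested.

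The miR-58 family, relatives of the fly microRNA bantam, held the largest share of reads at each age. That share was 35.0%, 35.0% and 39.3% at day 5 and 28.5%, 31.3% and 31.2% at day 15, without overlap (exact permutation test, two-sided, p = 0.1, the smallest possible). Of 5 members tested, the 4 abundant ones fell, beside 43.7% of all 174 tested. Among them mir-58a went from 83686, 82229 and 106325 CPM to 55278, 64348 and 64448 CPM (1.48-fold lower). The changes of mir-82, mir-81 and mir-80 were -0.33, -0.26 and -0.20, and the call of mir-81 ended with near-identical copies merged. The scarce mir-58b had 8 reads over the day 5 libraries and 57 over the day 15 libraries, and passed the count filter through day 15 alone, so its call is no support for a rise. Day 5 replicate 3, the only young library of lane L007, held the highest level of mir-58a and of mir-82.

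In the miR-51 family, known for a shared role in the embryo, 5 of 6 rose, beside 37.9% of all 174 tested. Their log2 changes were 0.19 to 0.38. The other member, mir-52, was not called (0.11), though 9 of the 18 alternatives called it higher. None of these 5 was called within lane L006. All 4 members of the miR-44 family were called higher, against the same 37.9%. Of the 4, mir-61, known from vulval cell fate, went from 8270 ± 429 to 14337 ± 762 CPM. Among them mir-247 lies under 10 CPM. The largest gap between mir-44 and mir-45 in any of the 6 libraries was 0.529% of their counts, so they are best read as 1 value (0.16 ± 0.05 for each). It was no longer called within lane L006 or without day 5 replicate 1. In the miR-2 family mir-250, mir-43 and mir-797 rose and mir-2 fell from 1284 ± 102 to 1098 ± 41.9 CPM. DESeq2, RLE size factors, library size alone and leaving out day 15 replicate 3 each ended the call of mir-2, and that of mir-797 ended within lane L006, where its change was 0.30 against 0.88 over both lanes.

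As in the lin-4 family, each tested member of the miR-50, miR-46 and miR-87 families fell, beside 43.7% of all 174 tested. In the miR-50 family mir-50, mir-62 and mir-90 changed by -0.78, -0.61 and -0.33, and mir-90 fell from 40820, 37865 and 40004 CPM to 31608, 31564 and 31028 CPM. The pair mir-46 and mir-47 fell 1.67-fold and 2.05-fold, and the pair mir-87 and mir-233 changed by -0.59 and -0.63. In each of these pairs the members lie on different chromosomes.

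Other small families split. In the miR-29 related pair mir-49 fell from 246, 286 and 196 CPM to 73.6, 83.4 and 76.4 CPM (3.12-fold), while mir-83, known for effects on cell migration and autophagy, rose slightly from 191 ± 18.7 to 224 ± 20.6 CPM with overlapping libraries. In the miR-75 family mir-75 rose 1.43-fold and mir-79 fell 1.35-fold, so the summed share of the pair was 0.0513 ± 0.000692% at day 5 and 0.0515 ± 0.00147% at day 15. The miR-72 family, related to miR-31 of mammals, rose from 8.32 ± 0.227% to 11.6 ± 0.317% of reads. This came with mir-72, which rose from 78406, 75882 and 77798 CPM to 105159, 103643 and 104201 CPM (1.35-fold). Of its relatives mir-74 fell (-0.56 ± 0.08) and mir-73 was not called (0.05, 95% interval -0.12 to 0.22) except higher without day 5 replicate 3.

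The miR-63 family had 3 falls, led by mir-63 (2.01-fold) and mir-229 (1.41-fold), and 1 small rise, that of mir-66. Over all 174 tested hairpins 43.7% were called lower and 37.9% higher. The fall of mir-65 (-0.16 ± 0.06) was lost without any 1 of 4 libraries (day 5 replicate 1 and each of day 15) and under DESeq2, RLE size factors or library size alone. The rise of mir-66 (0.14 ± 0.05) was lost without day 5 replicate 1 or day 15 replicate 1. In the miR-86 family mir-785 rose (0.24 ± 0.07), a call that ended within lane L006. The fall of its relative mir-86 (-0.13 ± 0.05) was lost without any 1 of the 6 libraries. In the miR-252 family mir-251 fell (-0.90 ± 0.16) and mir-252 was not called (0.13, 95% interval -0.05 to 0.30). Of the 18 alternatives 7 called mir-252 higher, among them leaving out day 15 replicate 3.

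**Figure D3:**
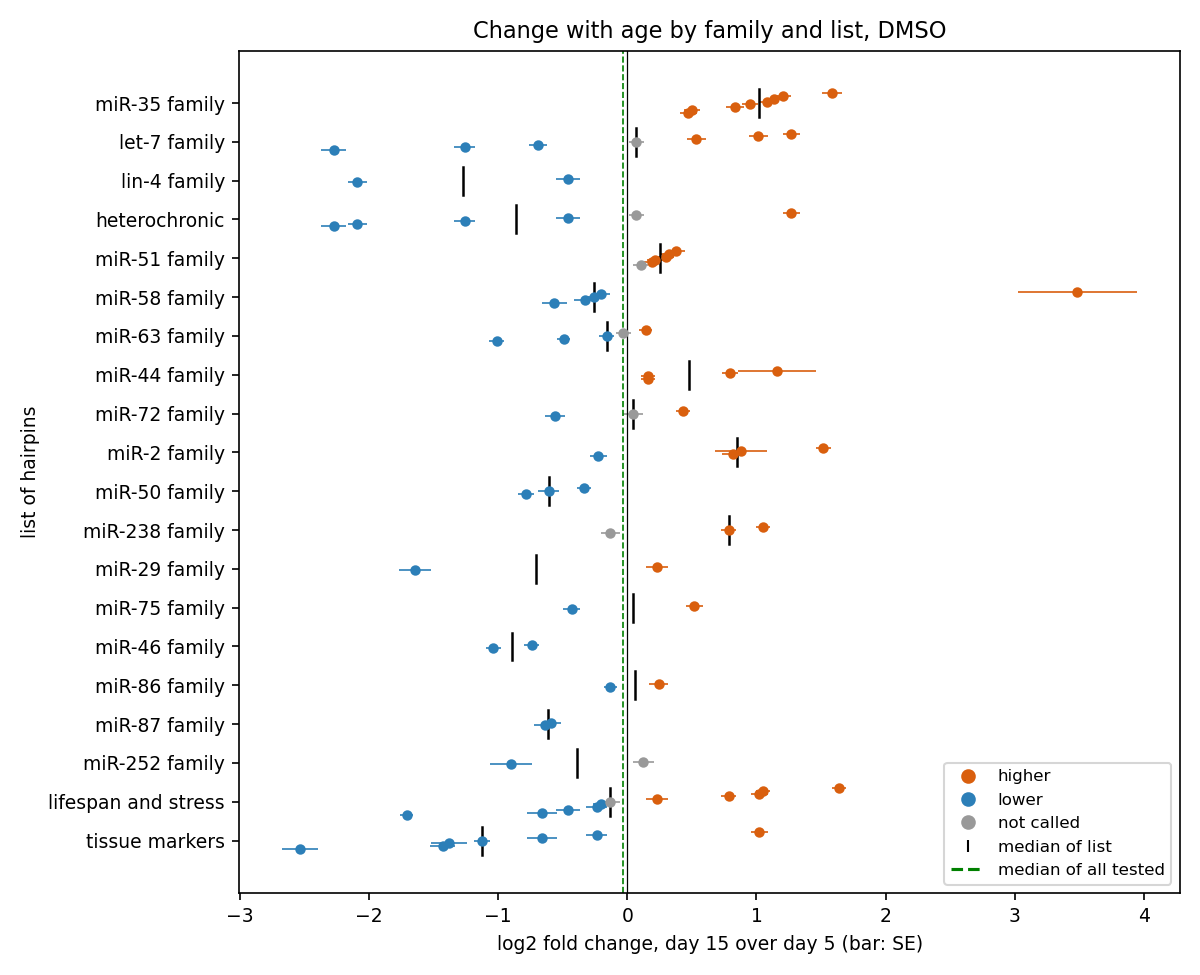
Log2 fold change from day 5 to day 15 in DMSO (x axis, horizontal bars are SE) of each tested hairpin in 20 families and lists (rows), with the median of each list as a black bar and of all 174 hairpins as a dashed line. The miR-35 family lies wholly to the right, the tissue markers lie to the left apart from mir-246, and let-7 family members lie on both sides.

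Position in the genome was compared with direction. In the WBcel235 annotation 246 of the 250 hairpins could be placed, and 74 of them lie within 10 kb of a neighbour on the same strand, in 26 clusters. Of these, 22 had at least 2 tested hairpins (60 in all), and 18 had at least 2 called. The called members all rose in 11 of the 18 and all fell in 5, and 2 clusters held both directions. Over all 174 tested hairpins 37.9% were called higher and 43.7% lower. Among the 5, the clusters of mir-80, mir-228 and mir-2 rest on calls that ended under DESeq2, RLE size factors or library size alone. Some rising clusters include members under 10 CPM, such as mir-247 and mir-2209c. Of the 16 families with at least 2 called members, the called members all rose in 4, all fell in 4 and went both ways in 8. Among these 8, the miR-58 family is mixed only through mir-58b, which passed the count filter through day 15 alone. The miR-63, miR-2, miR-29 and miR-86 families are mixed only through mir-66, mir-2, mir-83 and mir-86. Each of these calls ended with some 1 library left out. Clusters and families overlap in part, so these counts are not independent of each other, and no test was made of them.

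The cluster with the largest median change (1.62) holds mir-2208a, mir-2208b, mir-2209a and mir-2209c on the plus strand of chromosome IV (1021772 to 1027281). All 4 were called higher, beside 37.9% of all 174 tested. Their changes were 0.97 to 2.20 on the log2 scale, with the mean of mir-2208a going from 1.66 to 7.79 CPM. All but mir-2209a lie under 10 CPM, so the size of that median rests on scarce hairpins. With 6, 11 and 4 reads at day 5, mir-2209c passed the count filter through day 15 alone, so its call is no support for a rise. The abundant mir-2209a, with the smallest change of the 4, went from 166 ± 6.21 to 326 ± 24.9 CPM. On the plus strand of the X chromosome (1872466 to 1880038) lies a cluster of 11 hairpins of which 5 were tested. Of these mir-4807, mir-2220, mir-4809 and mir-1018 were called higher, and mir-4810a was not called (0.14, 95% interval -0.33 to 0.62). Both mir-2220 and mir-4809 lie under 10 CPM. The pair mir-250 and mir-61, 44 bases apart on the minus strand of chromosome V, rose 2.86-fold and 1.73-fold.

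Downward pairs were mir-230 and mir-791 on the X chromosome (3.06-fold and 2.60-fold), mir-357 and mir-358 on chromosome V, mir-80 and mir-90 on chromosome III, mir-228 and mir-790 on chromosome IV and the pair of mir-2 and mir-71 in introns of ppfr-1. Size differed within the last 2: mir-790 fell 2.66-fold beside 1.18-fold for mir-228, and mir-71 fell 3.27-fold beside 1.17-fold for mir-2. The clusters with both directions were mir-73 to mir-75 on the X chromosome (2368765 to 2372549), where mir-74 fell and mir-75 rose, and mir-229 to mir-66 in introns of gcn-1 on chromosome III, where mir-229 fell from 6499 ± 153 to 4620 ± 135 CPM. In the latter mir-64 stood at 20641 ± 870 and 20219 ± 884 CPM and was not called.

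**Figure D4:**
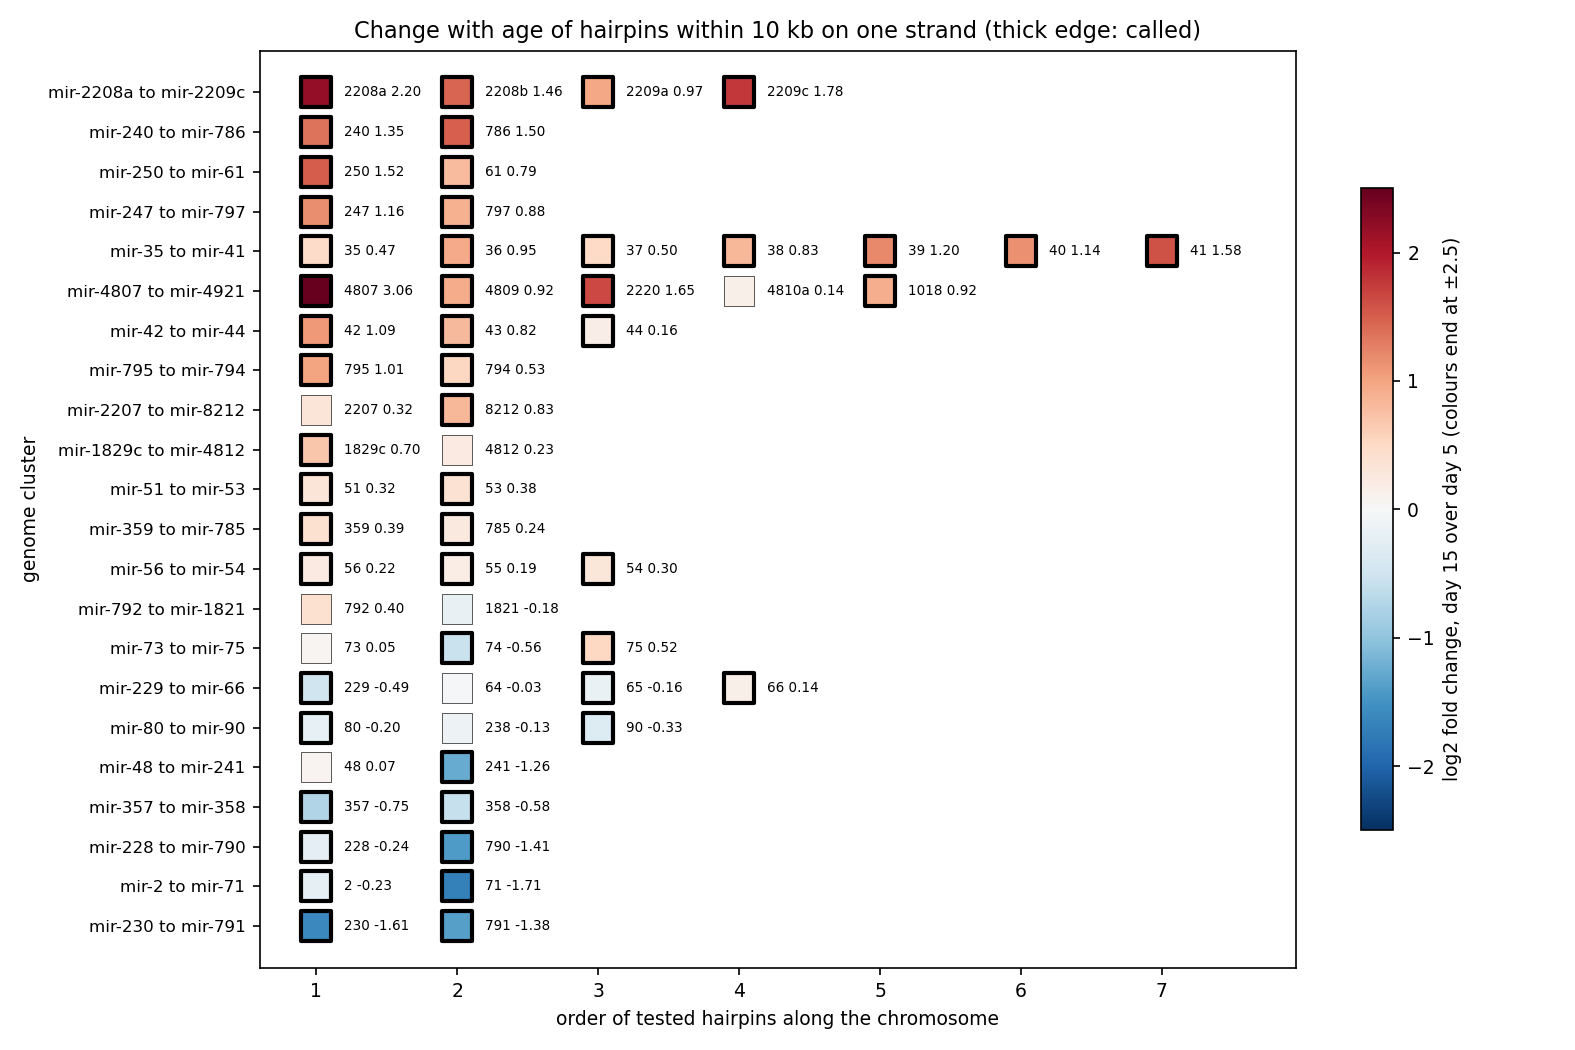
Log2 fold change from day 5 to day 15 in DMSO (colour and printed value) of the tested hairpins of 22 genome clusters (rows, ordered by median), in their order along the chromosome (x axis); thick edges mark called hairpins. Red fills the upper rows and blue the lower rows, and the rows mir-73 to mir-75 and mir-229 to mir-66 hold called members of both signs.

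Calls were also counted by abundance, in classes of mean CPM. From 10 to 100 CPM 5 of 37 tested hairpins were higher and 24 lower, beside 37.9% and 43.7% of all 174 tested. Above 100 CPM the directions were nearly even, with 18 and 20 of 45 from 100 to 1000 CPM, 12 and 13 of 28 from 1000 to 10000 CPM, and 9 and 10 of 22 above 10000 CPM. The 42 tested hairpins below 10 CPM lie near the count filter, which a hairpin can pass through the age at which it is high, so no direction is read from them. The median SE was 0.25 below 10 CPM and 0.06 above 10000 CPM, so small changes were detectable mainly in abundant hairpins. Across the 174 hairpins, which share libraries and are not independent, abundance and change had a Spearman correlation of -0.10. One that passed the filter through day 15 alone was mir-8202, with 2 reads over the day 5 libraries and 35 over the day 15 libraries.

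Ageing was set beside the same comparison in the 6 libraries of worms that had received rotenone, which share no library with the 6 in DMSO. In a fit over all 12 libraries with 181 hairpins tested, 145 were called in DMSO and 136 after rotenone. There were 125 called in both, all 125 in the same direction, which is 86.2% of the DMSO calls and 91.9% of the rotenone calls. Across the 181 hairpins the changes with age in the arms correlated with a Pearson r of 0.95 and a Spearman rho of 0.95. The hairpins are not independent, since they share libraries within each arm and the lane layout between arms.

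The size of the change differed between the arms for 12 hairpins (6.63%), and 45 had an unadjusted p under 0.05. With lane as a term 29 were called, and without day 5 DMSO replicate 3 the number was 19. The differences (DMSO minus rotenone) were positive for 3 and negative for 9, a split that became 10 and 3 without the 3 most abundant hairpins and 7 and 4 with library size alone. With age mir-71 fell by 1.70 on the log2 scale in DMSO and by 1.02 after rotenone, a difference of -0.68 ± 0.09 (adjusted p = 5.02e-06, edgeR quasi-likelihood test). Scaled over the 12 libraries, its level was 10874 ± 539 CPM in DMSO and 6725 ± 111 CPM after rotenone at day 5, and 3356 ± 76.4 and 3316 ± 84.5 CPM at day 15. The developmental timing hairpin mir-241 had the same pattern, with changes of -1.24 in DMSO and -0.59 after rotenone. For mir-77 the change was 0.08 in DMSO, where it was not called, and 0.53 after rotenone (difference -0.45 ± 0.09). In the DMSO libraries alone 6 of the 18 alternatives called mir-77 higher. These 3 differences were called under all 18 alternatives. Also called were mir-239a (1.06 in DMSO and 1.44 after rotenone) and mir-248 (-0.47 and -0.05). The difference of mir-239a was lost without the 3 most abundant hairpins. That of mir-248 was lost in 5 of the 18, including without day 15 DMSO replicate 1 or 3 and without day 15 rotenone replicate 3.

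**Figure D5:**
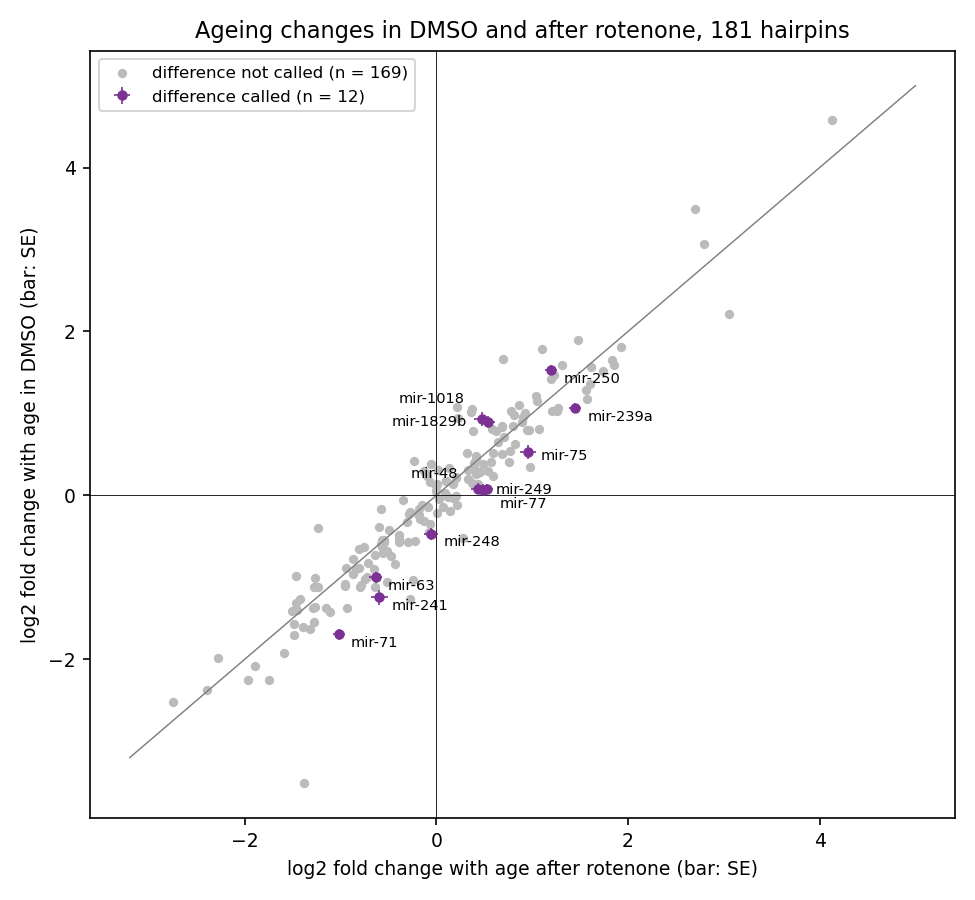
Log2 fold change from day 5 to day 15 in DMSO (y axis) against that after rotenone (x axis) for 181 hairpins fitted over 12 libraries, with the line of equal change; the 12 hairpins whose changes differ between the arms are purple with SE bars. Most hairpins follow the line, and mir-71 and mir-241 lie below it with larger falls in DMSO.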

How the data were processed

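Hairpin reads were measured by small RNA sequencing (TruSeq small RNA kit, per the labels' protocols) of whole worms. The authors deposited raw counts per hairpin, 1 column per library, with no normalization, and 0 columns belonged to other samples. Tools listed without role or order, per the submitters' processing notes, are SAMtools 1.3.1-9, BWA 0.7.12-r1039, bcl2fastq 1.8.4 and Trimmomatic 0.36. Not given in the sources used here are the genome build, hairpin reference, counting rule, strand and handling of shared reads. Arms are summed, and shared reads would make close copies uncertain.

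Day 15 was compared with day 5 in the 6 DMSO libraries with edgeR 4.0.16 (R 4.3.3): filterByExpr with a minimum count of 10, TMM scaling, quasi-likelihood F test, 4 residual degrees of freedom, and a threshold of 0.05 on the p adjusted by Benjamini-Hochberg over 174 hairpins. The biological coefficient of variation was 6.40%. The 76 untested hairpins held 0.00235% of reads. CPM of libraries and groups are TMM-scaled, while shares, abundance classes and means over the 6 libraries use library size alone. SE is the size of the log2 change over the square root of F. The difference between DMSO and rotenone was the interaction in a fit of all 12 libraries. Shares were compared by exact permutation of 3 libraries against 3, whose smallest two-sided p is 0.1. Total counts of 4727531 to 10481528 set the precision, and intervals on counts cover counting error only.

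Named hairpins are the 15 largest called rises and 15 largest called falls where the mean reached 10 CPM, tested list members, the 5 most abundant at each age, the 5 lowest p of the treatment difference, and cluster neighbours called in opposite directions. Others (such as mir-8202, mir-4806, mir-357, mir-358 and the members of 2 scarce clusters) were chosen after their values were seen. The members and lists were chosen with earlier results of these data known. Positions come from Ensembl release 115 (WBcel235), matched by name for 245 hairpins and through the RefSeq symbol for 1. Scripts were tested on simulated data. Alternatives were RLE size factors, library size alone, no filter, a minimum count of 100, leaving out the 3 most abundant hairpins, merging near-identical copies, DESeq2 1.42.0, limma-voom (limma 3.58.1), a lane term, all 12 libraries, each lane alone, and each library left out. Replicates are numbered in accession order, which pairs nothing.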

Additional observations from a re-analysis of the deposited data

Results flagged for a closer look

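The change with age differed between DMSO and rotenone, by the interaction test over all 12 libraries (edgeR quasi-likelihood, adjusted p under 0.05 of 181), for 12 hairpins. The differences, DMSO minus rotenone on the log2 scale, were -0.68 for mir-71, -0.65 for mir-241, -0.45 for mir-77, -0.43 for mir-75, -0.42 for mir-249, -0.41 for mir-248, -0.38 for mir-239a, -0.36 for mir-63 and -0.35 for mir-48. Positive differences were 0.45 for mir-1018, 0.36 for mir-1829b and 0.33 for mir-250. The calls of mir-71, mir-241 and mir-77 held under the 18 alternatives, while those of mir-48 and mir-75 were lost under 9 and 7 of them, that of mir-248 under 5, those of mir-63 and mir-249 under 4 each, that of mir-1829b under 2 and those of mir-239a, mir-1018 and mir-250 under 1 each. In 3 of the 12, mir-77, mir-249 and mir-48, the DMSO arm had no called change with age (0.08, 0.07 and 0.08), and the rotenone arm rose (0.53, 0.49 and 0.43). In the DMSO libraries alone, mir-77 was called higher under 6 of the 18 alternatives and mir-48 under 5.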

How the results depend on the processing

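Of 142 calls of ageing in DMSO, 128 to 140 kept call and direction under 9 of the 10 alternatives of scaling, filter, tool, lane term or libraries fitted. With the minimum count of 100, 100 were kept and 35 were not tested. Under all 10 together 94 were tested and kept, 41 higher and 53 lower, and 123 were kept with any 1 library left out. The alternatives turned 0 calls to the opposite direction. The number called lay between 104 and 145. Over all hairpins the median change, -0.03, became 0.05 with RLE size factors or library size alone, 0.08 with copies merged, which gave 74 higher and 65 lower, -0.07 with no filter and -0.11 with the minimum count of 100. Hairpins called and over 1 on the log2 scale numbered 39 with the minimum count of 100, where 126 hairpins were tested, and 58 to 71 when 1 library was dropped. The treatment difference was called for 29 hairpins with a lane term and for 8 to 19 with a library left out, 19 of them without day 5 DMSO replicate 3, 8 without day 5 rotenone replicate 2 and 8 without day 15 rotenone replicate 3. DESeq2 called 18. Its split of 3 positive and 9 negative was 10 and 3 without the 3 most abundant hairpins and 7 and 4 with library size alone. With the 3 most abundant hairpins left out of the total the share changes were 11.0 percentage points for miR-35, -1.44 for miR-58, 0.0532 for miR-72 and 0.459 for miR-51, against 7.61, -6.08, 3.33 and 0.35 (the 3 are mir-82, mir-72 and mir-58a, so the miR-58 and miR-72 families lose members).

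Only mir-64 and mir-73, neither called, changed sign among the named hairpins. The value of mir-64 was -0.03 and became 0.0502 with RLE size factors, 0.0587 with library size alone, 0.0372 without the 3 most abundant hairpins, 0.0285 with no filter, 0.0509 with the stricter filter, 0.0502 with DESeq2, 0.00443 with a lane term, 0.0884 with copies merged and 0.0123 within lane L007, with a range of -0.0496 to 0.0233 when 1 library was dropped. That of mir-73 was 0.05 and became -0.14 within lane L007, with a range of -0.0232 to 0.170 when 1 library was dropped. The cause was not tested. No paired analysis was possible because the labels give no replicate numbers. The depth of day 15, 4727531 to 5989717 reads, limits hairpins under 10 CPM.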

Other observations

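Hairpins inside a protein-coding gene on its strand were more often called lower than higher: of 49 tested, 29 were lower and 11 higher (median -0.33), while of 124 outside such genes 47 were lower and 54 higher (median 0.12). By chromosome, 12 of 20 tested hairpins were lower and 4 higher on chromosome I, and 12 of 19 lower and 2 higher on chromosome III. On chromosome II 10 of 31 were lower and 17 higher, and these 17 hold the 8 of the miR-35 family. On chromosome IV 12 of 30 were lower and 15 higher, on chromosome V 8 of 16 were lower and 3 higher, and on the X chromosome 22 of 57 were lower and 24 higher. Over all 174 tested hairpins 43.7% were lower and 37.9% higher. These counts include hairpins under 10 CPM, from which no direction is read. They are descriptions, and neighbours on a chromosome are not independent.

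Several abundant hairpins outside the lists also fell. The miR-92 relative mir-235, known for keeping larval neuroblasts quiescent in starvation, went from 30947, 26942 and 26390 CPM to 14871, 12459 and 14409 CPM (2.02-fold lower). For mir-244 the libraries held 3248, 3152 and 3374 CPM and then 1350, 1348 and 1322 CPM (2.43-fold lower). In the other direction mir-85 rose from 4331 ± 513 to 7504 ± 666 CPM. The libraries of the ages did not overlap for any of the 3.

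The untested mir-4806 had 43 reads over the day 5 libraries and 2 over the day 15 libraries, a ratio of 12.2 lower at day 15 after scaling by library size (exact 95% interval 3.18 to 104, counting error only).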
